A study of Mus musculus with 2 samples.

Results

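The genes described here carry out cell division: 41 genes of mitosis, the kinetochore and cytokinesis, read in mouse erythroblasts. They were chosen by name, for what their proteins do, and found in the deposited tables by gene identifier, 41 of 43346 Ensembl genes. Erythroblasts are red cell precursors that still have a nucleus. They were taken as primary cells from adult male mice of strain C57BL/6J at 5 to 6 weeks of age, per the labels, and the isolation protocol named there starts from bone marrow. No gene was altered and no agent is named. Each of 2 libraries was made with a ScriptSeq kit from 100 ng of total RNA depleted of ribosomal RNA. The libraries form 1 group, called replicates 1 and 2 here, so the data hold no contrast of conditions. Both biosamples stand under 1 donor record, and how much of their spread is technical is not known.

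In a dividing cell, condensin and topoisomerase II fold and untangle the chromosomes, and Aurora and Polo-like kinases drive the building of the spindle. The kinetochore ties each chromosome to spindle fibres, the spindle checkpoint delays the separation of sister chromatids until all are attached, and the central spindle then guides the furrow that splits the cell. Erythroblasts are known to divide several times while they fill with haemoglobin, and they leave the cell cycle before they lose the nucleus. Many genes of this machinery are known to be transcribed late in the cycle by complexes that bind the cell cycle homology region (CHR) and CCAAT boxes of their promoters.

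Replicate 1 held 37312624 expected counts over Ensembl genes and replicate 2 held 22464724. Expected counts are estimated reads per gene, and TPM (transcripts per 1000000) is the matching share per length over all listed features. Nuclear protein-coding genes held 11.3% of deposited TPM in replicate 1 and 6.89% in replicate 2, so a deposited TPM of 1 stands for a different coding level in each library. Levels are therefore given as coding-scaled TPM, in which the nuclear protein-coding genes of each library are made to sum to 1000000. All 11 erythroid markers were detected, with 40.4% and 34.6% of coding TPM, so the markers of the labelled cell type were all present. All 10 neutrophil precursor markers were detected too, with summed coding-scaled TPM of 20153 and 19731, or 2.02% and 1.97% of coding TPM. Of the monocyte and macrophage markers 6 of 8 were detected (summed coding-scaled TPM of 239 and 212), of the megakaryocyte markers 2 of 6 (121 and 144), and of the stem and progenitor markers 2 of 7 (104 and 88.3). Of the T and NK cell markers 1 of 6 was detected (34.5 and 22.3) and of the B cell markers 0 of 8 (10.2 and 3.77), with Igll1, Pax5 and Cd8a at 0 counts in both libraries. The part of these other cells in the levels of the mitosis genes was not tested.

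Most of the 41 genes were detected. Detection was set at a deposited TPM of 1 or more in each library, and 39 of 41 mitosis genes reached it, against 20.3% of nuclear protein-coding genes. The exceptions were Ttk, with TPM of 1.79 and 0.60 in replicates 1 and 2, and Espl1, with 0.87 and 0.80. By a limit of 1 coding-scaled TPM all 41 passed in both libraries, against 43.9% of nuclear protein-coding genes. The median coding-scaled TPM of the 41 genes was 45.9 in replicate 1 and 63.1 in replicate 2, a mean of 54.5 ± 12.1 (SD, n = 2). For the 12895 nuclear protein-coding genes with a TPM above 0 in either library it was 7.02 and 6.96. Ranked among those genes, the mitosis genes had a median percentile of 85.8, from 56.2 for Espl1 to 99.5 for Mki67. They were 14 in the top 10% and 32 in the top 20%. In RNA from whole populations, fewer dividing cells and less RNA in each dividing cell cannot be told apart.

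Within the 41 genes, levels spread widely, from a mean coding-scaled TPM of 9.67 for Espl1 to 1389.8 for Mki67. A mean of at least 100 was reached by 12 genes, 26 lay between 20 and 100, and 3 lay under 20. Mki67 stood alone at the top, at 3.88 times the level of the second gene in replicate 1 and 3.39 times in replicate 2. It held 30.9% and 27.6% of the summed coding-scaled TPM of the 41 genes. Because its listed transcript of 10075 bases is also long, it held 61.0% and 58.0% of their counts. Together the 41 genes held 0.904% and 0.833% of all counts of the libraries.

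**Figure D1:**
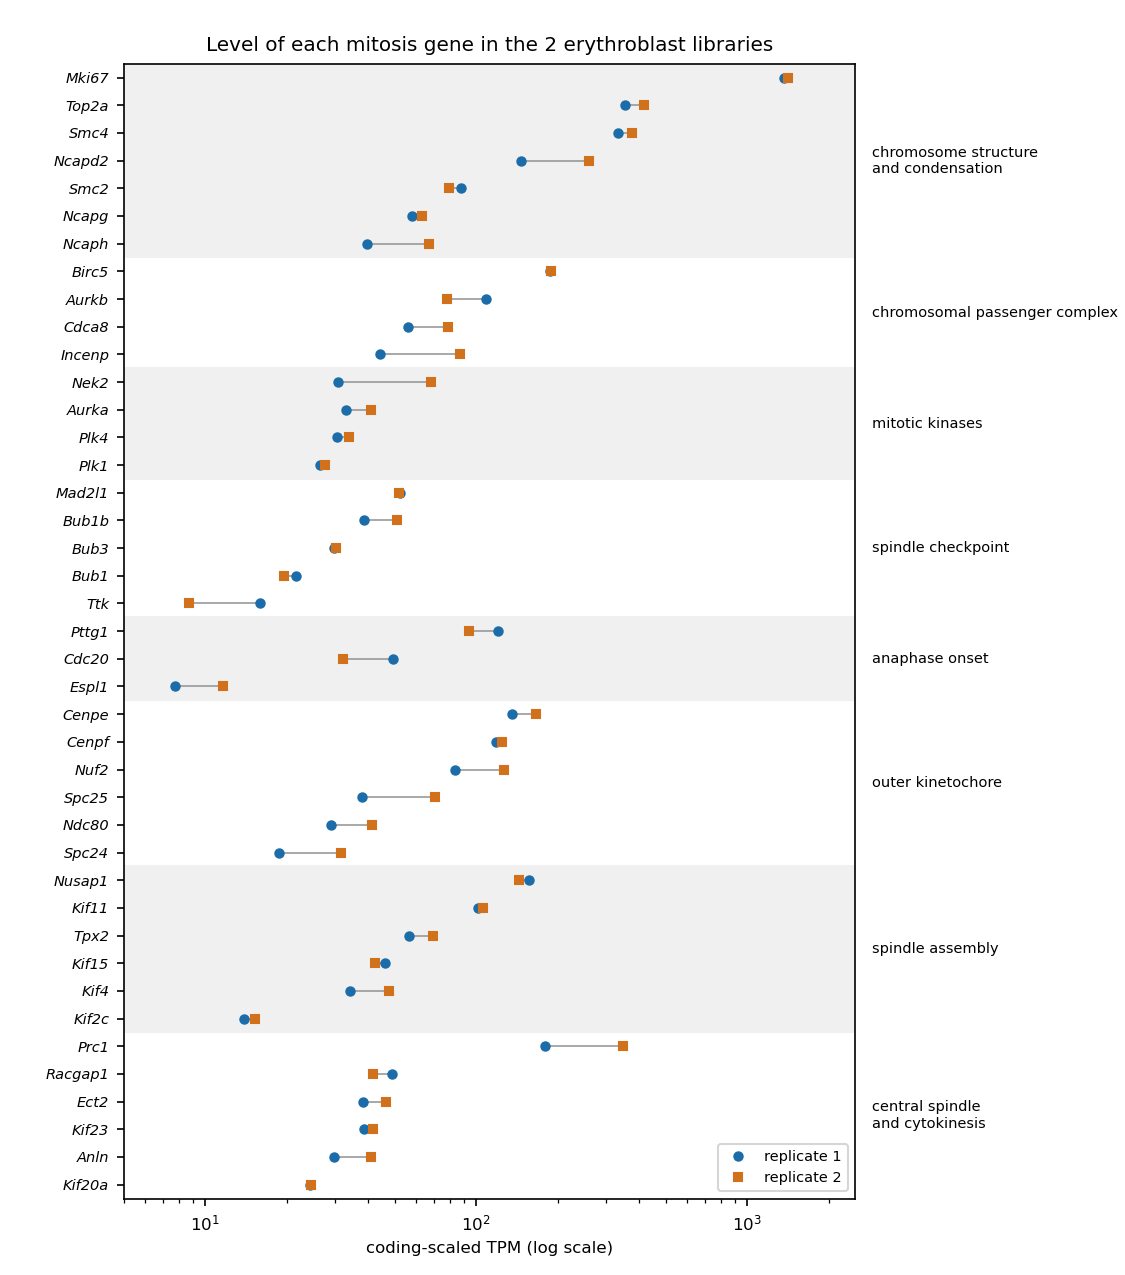
Coding-scaled TPM (log scale) of each of the 41 mitosis genes in replicate 1 (circles) and replicate 2 (squares), grouped by role, with a line joining the libraries. Mki67 lies far to the right at 1369 and 1411, most genes lie between 20 and 100, and Kif2c, Ttk and Espl1 lie at the left.

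The promoters are shown because many of these genes hold a pair of short elements there, which the rule that chose the genes did not use. Promoter windows of 300 bases, 250 before to 50 after the start given by RefSeq on build GRCm38.p6, were matched for 35 of the 41 genes, with 38 windows, since Prc1, Bub3 and Ect2 have a pair of overlapping ones. Aurkb, Incenp, Kif20a, Smc4, Spc24 and Tpx2 had no window. The windows of Cdca8, Kif2c, Kif4 and Pttg1, and 1 of those of Bub3, lay wholly inside the gene as bounded in the annotation used for names. The starts used there are thus not the outermost ones of these genes. Each window was searched on both strands for the CHR core, written TTTGAA or TTCGAA, and for the CCAAT box, written CCAAT. On the opposite strand TTTGAA reads TTCAAA and CCAAT reads ATTGG, while TTCGAA reads the same and was counted once. The 4 sequences printed belong to the genes with the highest mean level among those with both elements. They are written 5′ to 3′ along the gene, with both elements in capitals.
Mki67 (chr7:135716330-135716629, minus strand): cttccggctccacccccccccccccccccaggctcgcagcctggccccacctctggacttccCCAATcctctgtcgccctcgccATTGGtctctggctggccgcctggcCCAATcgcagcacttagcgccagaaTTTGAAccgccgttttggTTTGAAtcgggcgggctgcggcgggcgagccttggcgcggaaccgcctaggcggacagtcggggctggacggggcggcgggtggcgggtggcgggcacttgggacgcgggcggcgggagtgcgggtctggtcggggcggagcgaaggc
Top2a (chr11:99024140-99024439, minus strand): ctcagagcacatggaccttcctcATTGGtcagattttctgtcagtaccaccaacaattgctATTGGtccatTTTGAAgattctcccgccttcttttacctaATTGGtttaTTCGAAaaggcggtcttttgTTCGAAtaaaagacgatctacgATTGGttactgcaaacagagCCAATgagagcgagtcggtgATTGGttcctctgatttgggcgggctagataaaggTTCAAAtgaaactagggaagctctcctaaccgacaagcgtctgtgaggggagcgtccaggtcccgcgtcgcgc
Prc1 (chr7:80294201-80294500, plus strand): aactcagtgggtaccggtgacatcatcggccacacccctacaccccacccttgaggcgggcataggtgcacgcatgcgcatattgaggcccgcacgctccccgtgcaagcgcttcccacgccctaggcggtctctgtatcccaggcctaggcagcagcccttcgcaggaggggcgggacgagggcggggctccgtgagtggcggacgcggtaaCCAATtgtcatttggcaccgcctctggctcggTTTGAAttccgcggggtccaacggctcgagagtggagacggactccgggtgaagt
Ncapd2 (chr6:125191537-125191836, minus strand): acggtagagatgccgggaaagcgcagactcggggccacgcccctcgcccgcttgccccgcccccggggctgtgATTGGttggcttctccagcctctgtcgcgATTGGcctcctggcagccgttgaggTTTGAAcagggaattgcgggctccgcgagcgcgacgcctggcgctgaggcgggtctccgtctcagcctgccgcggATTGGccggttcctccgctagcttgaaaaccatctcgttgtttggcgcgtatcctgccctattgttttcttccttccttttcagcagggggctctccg
The Mki67 window held 2 CHR cores and 3 CCAAT boxes, all upstream of the start. The Top2a window held 4 CHR cores and 6 CCAAT boxes. In the printed Prc1 window a single CHR core lay across the start itself, at bases -5 to 1, with a single CCAAT box at -37 to -33. Measured from the other annotated start of Prc1, they lay at -30 to -25 and -62 to -58. Ncapd2 had 1 CHR core at -123 to -118, between CCAAT boxes on either side.

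Of the 38 windows, 29 (76.3%) held a CHR core, 27 (71.1%) a CCAAT box and 25 (65.8%) both. Over all 32851 windows of the RefSeq table the shares were 19.2%, 37.4% and 7.52%, and over the 4427 windows of detected nuclear protein-coding genes they were 15.0%, 38.9% and 6.96%. A CHR core within 50 bases of the start, a window set after the positions were seen, was found in 25 of the 38 (65.8%) and in 5.60% of all. The median GC content was 59.0% in the mitosis genes' windows, 52.7% over all and 61.3% over detected coding genes. A further list of 65 mitosis genes, which shares no gene with the 41, had 62 windows, of which 54.8% held a CHR core, 64.5% a CCAAT box and 37.1% both. A list of 35 DNA replication genes had 31 windows, with 19.4%, 67.7% and 16.1%. The CCAAT share of the replication genes was thus near that of the mitosis genes, and their CHR share near that of all windows. A CHR core within 50 bases of the start was in 40.3% of the further mitosis genes' windows and 6.45% of the replication genes' windows. For detected nuclear protein-coding genes that share was 4.65%.

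By gene, 22 of the 35 held both elements and 7 held neither. Of all 27025 genes with a window, 2328 held both and 12684 neither. Of the 3479 detected nuclear protein-coding genes with a window, 287 held both and 1655 neither. The 7 mitosis genes with neither were Birc5, Nusap1, Pttg1, Nuf2, Ncaph, Mad2l1 and Plk4, which says only that these letters are not in these windows. Named after their values were seen, Cenpe and Nek2 held a CCAAT box only, and Kif15, Anln, Ndc80 and Kif2c a CHR core only. In Cdca8 a CHR core and a CCAAT box share 1 base, and elsewhere they did not overlap. The median coding-scaled TPM was 45.0 for the 22 genes with both elements and 35.3 for the 4 with a CHR core only. It was 100.2 for the 2 with a CCAAT box only and 105 for the 7 with neither. The classes without a CHR core thus had the higher medians, but they are small, and a link to level was not tested. Mki67 and Top2a, the highest of all, held both elements, as did Ttk and Espl1, the lowest.

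**Figure D2:**
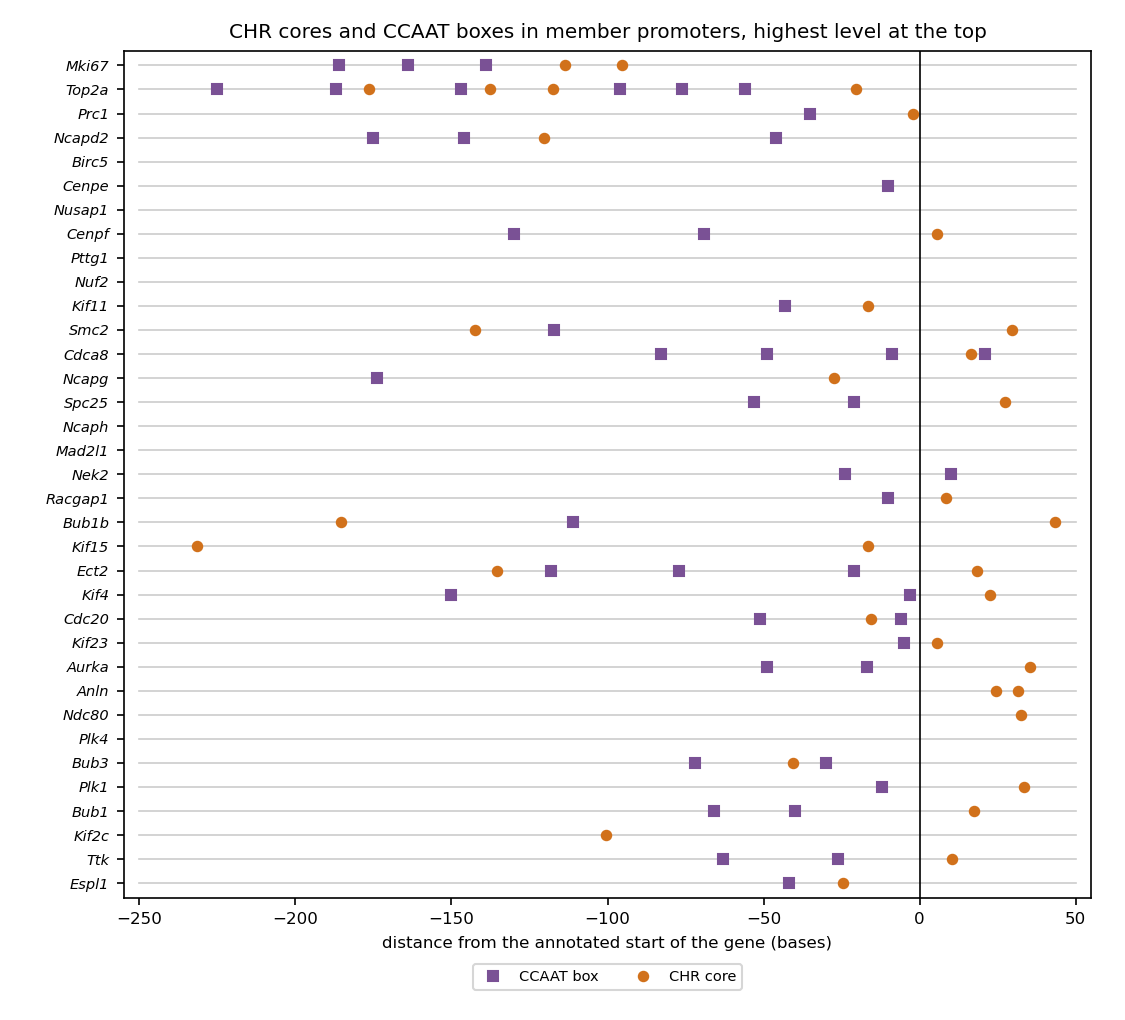
Position of CHR cores (circles) and CCAAT boxes (squares) relative to the annotated start (0, in bases) in 1 window of each of 35 mitosis genes, from the highest mean level at the top to the lowest. CHR cores gather near the start in most rows, while those of Mki67, Ncapd2 and Kif2c lie further upstream, and 7 rows are empty.

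Genes of chromosome structure and condensation were the highest of the 8 roles, with a median coding-scaled TPM of 146 and 261 in replicates 1 and 2. In both libraries this median is the value of Ncapd2, most of whose TPM lay outside protein-coding transcripts. Over protein-coding transcripts alone the middle of the 7 genes was Smc2, at 86.0 and 79.0. Mki67 encodes Ki-67, which coats mitotic chromosomes and keeps them apart. It stood at 1369 and 1411 coding-scaled TPM, or 1389.8 ± 29.5 (SD, n = 2), from 205750 and 108479 counts. The libraries thus nearly coincided for the gene with most reads. Top2a, the topoisomerase that untangles sister chromatids, stood at 353 and 417 coding-scaled TPM. The condensin I complex has an ATPase pair, Smc2 and Smc4, and a group of regulatory subunits, Ncapd2, Ncapg and Ncaph. Smc4 stood at 334 and 375 coding-scaled TPM and Smc2 at 88.1 and 79.2. Ncapd2 stood at 146 and 261, Ncapg at 57.9 and 63.1, and Ncaph at 39.5 and 67.2. The subunits, which assemble in equal numbers, were thus listed at unequal levels in both libraries, with Smc4 highest and Ncaph or Ncapg lowest. The order of Ncapd2 and Smc2 depended on which transcripts were counted.

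The chromosomal passenger complex corrects wrong attachments and later marks the cleavage plane, and its median coding-scaled TPM was 82.1 and 83.1. Birc5 (survivin), which brings the complex to chromatin, was its highest subunit at 188 and 189 coding-scaled TPM. Aurkb, the complex's kinase, stood at 108 and 77.7, and Cdca8 (borealin) at 55.9 and 78.9. Incenp, the scaffold on which they assemble, stood at 44.2 and 87.3. Birc5 was highest in both libraries, while the libraries put Aurkb, Cdca8 and Incenp in a different order. Of the TPM of Aurkb, 65.0% and 70.1% lay outside protein-coding transcripts. Over protein-coding transcripts alone Aurkb was the lowest of the complex in both libraries, at 37.9 and 23.2.

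The remaining kinases were lower, with a median coding-scaled TPM of 30.7 and 37.3. Nek2, a kinase of centrosome separation, stood at 30.9 and 68.3 coding-scaled TPM and was the gene in which the libraries were farthest apart on this scale. Aurka, which works at spindle poles, stood at 33.1 and 40.8, Plk4, which controls centriole duplication, at 30.6 and 33.8, and Plk1, which acts throughout mitosis, at 26.6 and 27.6. Aurka, Plk4 and Plk1 thus lay between 26.6 and 40.8 over both libraries.

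The spindle checkpoint genes had a median coding-scaled TPM of 29.9 and 30.3. Mad2l1, part of the inhibitor that holds back anaphase, was highest at 52.5 and 51.8, followed by its partners Bub1b at 38.4 and 50.9 and Bub3 at 29.9 and 30.3. The kinase Bub1, which recruits them to the kinetochore, stood at 21.7 and 19.6 coding-scaled TPM. Ttk, the kinase that starts the checkpoint signal, was lower in replicate 2 than in replicate 1, at 8.70 against 15.9 coding-scaled TPM and 181 against 607 counts. Ttk and Bub1 were the checkpoint genes with the lowest means. Genes of anaphase onset spread over a wider range. Pttg1 (securin), the inhibitor that is destroyed at anaphase, stood at 120.0 and 93.8 coding-scaled TPM, and Cdc20, which activates that destruction, at 49.1 and 32.3. Espl1 (separase), the protease that securin holds in check, had the lowest mean level of the 41 genes, at 7.73 and 11.6 coding-scaled TPM from 756 and 584 counts. In both libraries securin was thus listed well above the protease it binds.

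The outer kinetochore had a median coding-scaled TPM of 60.6 and 97.5. Cenpe, a motor that moves chromosomes to the middle of the spindle, was highest at 135 and 166, and Cenpf, which links the kinetochore to dynein, stood at 118 and 125. The NDC80 complex, which grips spindle fibres, has the subunits Ndc80, Nuf2, Spc24 and Spc25. Nuf2 stood at 83.4 and 127 coding-scaled TPM, Spc25 at 37.9 and 70.3, Ndc80 at 29.1 and 41.2, and Spc24 at 18.7 and 31.6. The order of the subunits was the same in both libraries, and all 4 were higher in replicate 2 on this scale. For Nuf2 both statements depend on Nuf2-205, a transcript of 513 bases. It held 0% and 50.9% of the TPM of Nuf2 in replicates 1 and 2. By share of all counts Nuf2 was lower in replicate 2, at 0.0051% against 0.0067% in replicate 1.

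Spindle assembly genes had a median coding-scaled TPM of 51.1 and 58.3. Nusap1, which bundles spindle fibres near chromosomes, stood at 156 and 144, and Kif11, the motor that pushes spindle poles apart, at 102 and 106. Tpx2, an activator of Aurka, stood at 56.3 and 69.0. The motors Kif15 (45.9 and 42.4), Kif4 (34.2 and 47.6) and Kif2c (13.9 and 15.2) were lower, and Kif2c, which takes spindle fibres apart, was among the 5 lowest of all. Central spindle and cytokinesis genes had a median of 38.3 and 41.6 coding-scaled TPM. Prc1, which bundles the fibres of the central spindle, stood far above the rest of its role at 180 and 349. Centralspindlin, made of Kif23 and Racgap1, had its subunits near each other, Kif23 at 38.6 and 41.6 and Racgap1 at 49.1 and 41.6 coding-scaled TPM. Ect2, which switches on RhoA at the furrow, stood at 38.1 and 46.4, Anln, which ties the furrow's actin to the membrane, at 29.9 and 40.9, and Kif20a, which carries the passenger complex to the central spindle, at 24.3 and 24.5. Apart from Prc1, the role held to a range from 24.3 to 49.1 over both libraries.

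Mitosis genes outside the 41 were lower as a list. Of those 65, 49 were detected by deposited TPM and all 65 passed 1 coding-scaled TPM. Their median coding-scaled TPM was 27.8 and 29.4. The 35 DNA replication genes had 33 detected and a median of 39.0 and 44.7. The highest of the 65 were Cdc25b, a phosphatase that releases mitotic entry, at 382 and 480 coding-scaled TPM, Cit (citron kinase, of the midbody) at 178 and 218, Ube2c at 227 and 129, Ube2s at 144 and 196, and Zwint at 142 and 192. Ube2c and Ube2s hand ubiquitin to the complex that starts anaphase, and Zwint sits at the kinetochore. The 16 that were not detected were Cenpi, Cenpn, Cenpl, Cenpt, Cenpw and Cenpm of the inner kinetochore, Nsl1 and the Ska subunits Ska1 and Ska3 of the outer kinetochore, and Cep55, Cdca5, Cdc25c, Melk, Gtse1, Troap and Bora. Their mean coding-scaled TPM ran from 3.56 for Cenpm to 15.1 for Cenpi.

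The libraries were compared gene by gene as the log2 ratio of replicate 2 over replicate 1, from rounded expected counts with TMM scaling, which corrects for library size and composition. With 1 library on each side no test is possible, so a gene was called apart when its ratio was at least 2-fold, with a mean count over the libraries of 100 or more. None of the 41 mitosis genes was, against 8.54% of 7658 nuclear protein-coding genes, made up of 2.93% with the higher scaled count in replicate 2 and 5.62% with the higher one in replicate 1. The log2 ratios ran from -0.87 for Ttk, with a 95% counting interval of -1.12 to -0.63, to 0.91 for Incenp, with an interval of 0.82 to 0.99. These intervals are exact Clopper-Pearson intervals and cover counting error only, as no molecular identifiers mark single molecules. The median log2 ratio was 0.03, with 21 genes above 0 and 20 below, and it was -0.04 over all 7658 genes. By counts the mitosis genes thus divided almost evenly between the libraries. A log2 ratio within 0.5 of 0 was found in 33 of 41 (80.5%) and in 70.3% of the 7658. Neither this share nor the share 2-fold apart was matched for depth. Each of the 41 had at least 181 counts in each library, while the 7658 were taken from a mean of 100 upward.

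Single genes still differed by more than counting error. The interval left out 0 for 28 of the 41 genes, against 69.4% of all 7658, so about as often as elsewhere. After Incenp, the highest log2 ratios were those of Nek2 (0.76), Spc25 (0.73), Spc24 (0.71) and Prc1 (0.62). After Ttk, the lowest were those of Cdc20 (-0.66) and Aurkb (-0.50). Subunits of a complex stood on both sides of 0. Within the passenger complex the log2 count ratio was 0.91 for Incenp, 0.11 for Birc5, -0.07 for Cdca8 and -0.50 for Aurkb, though by coding-scaled TPM Cdca8 had 0.50. In the NDC80 complex it was 0.73 for Spc25, 0.71 for Spc24 and 0.44 for Ndc80, while Nuf2 had -0.25 by counts and 0.61 by coding-scaled TPM. In condensin I it was 0.32 for Ncapd2, 0.18 for Ncapg, -0.12 for Smc4, -0.22 for Smc2 and -0.24 for Ncaph, of which Smc4 (0.17) and Ncaph (0.77) were above 0 by coding-scaled TPM. The centralspindlin pair had 0.03 for Kif23 and -0.32 for Racgap1, and with scaling by library size alone Kif23 had -0.11. That scaling moved the median of all 7658 genes to -0.19. Of the 65 further mitosis genes, 63 had a mean count of at least 100. Of those 63, 3 were at least 2-fold apart, against 8.54% of all 7658 genes. Cep55, of the midbody, had a log2 ratio of -1.57, Ska3 had -1.31, and Fbxo5, an inhibitor of the complex that starts anaphase and named after its value was seen, had 1.09.

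**Figure D3:**
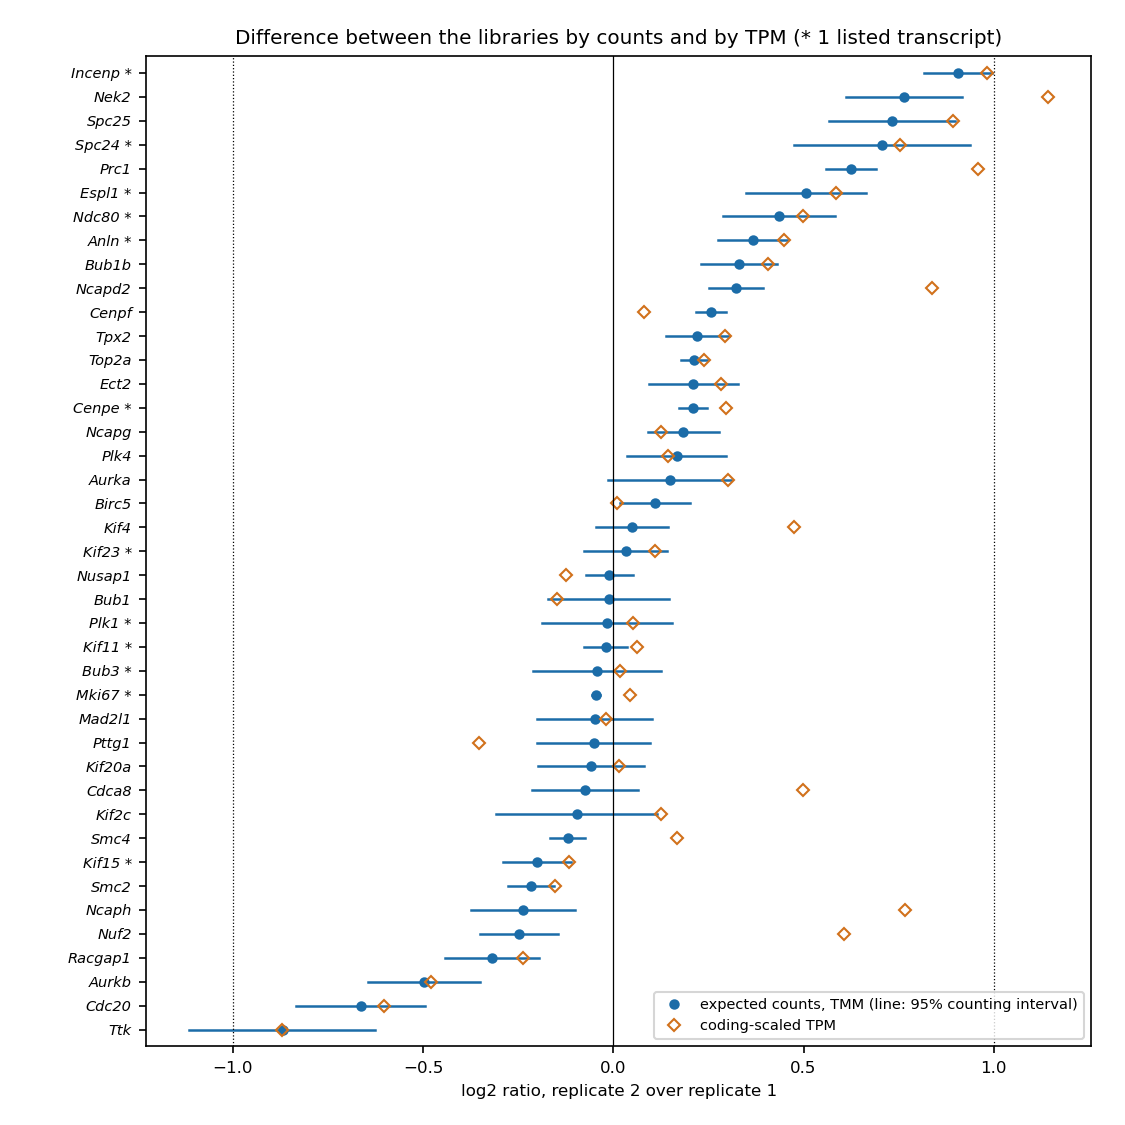
Log2 ratio of replicate 2 over replicate 1 for each mitosis gene by expected counts (filled circles, with the 95% counting interval as a line) and by coding-scaled TPM (open diamonds), with 2-fold limits dotted. By counts no gene lies outside the limits, and by TPM only Nek2 does, while the largest gaps between both measures are those of Ncaph, Nuf2, Cdca8 and Ncapd2.

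Counts and TPM gave different answers for some genes. By coding-scaled TPM, 1 of the 41, Nek2, was at least 2-fold apart, with a log2 ratio of 1.14 against 0.76 by counts, and 12.6% of the 7658 genes were. The median log2 ratio was 0.14 on this scale and 0.03 over all, and the sign differed from that by counts in 10 genes. The 12 genes with a single listed transcript all had a gap between the log2 ratios (TPM less counts) from 0.05 to 0.09. Among the 29 genes with several transcripts the gap ran from -0.30 to 1.00. It was 0.5 or more in size in 4: Ncaph had a log2 ratio of -0.24 by counts and 0.77 by coding-scaled TPM, Nuf2 -0.25 and 0.61, Cdca8 -0.07 and 0.50, and Ncapd2 0.32 and 0.84. For 3 of these 4 genes, Ncaph, Nuf2 and Cdca8, the measures differ in sign. Over protein-coding transcripts alone the log2 ratio by coding-scaled TPM was -0.78 for Ncaph, 0.62 for Nuf2, -0.65 for Cdca8 and 0.52 for Ncapd2.

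In those genes short transcripts held a larger share of TPM than of counts in replicate 2. Ncaph-204, a processed transcript of 283 bases, had 0 counts in replicate 1 and 26.0 in replicate 2, which made 0% and 37.1% of the TPM of Ncaph. Nuf2-205, of 513 bases, had 0 and 181 counts and 0% and 50.9% of TPM. It is annotated as protein-coding, so it stays in the values of Nuf2 over protein-coding transcripts. Cdca8-204, of 712 bases, had 21.7 and 186 counts and 4.88% and 54.4% of TPM. In replicate 2 these made 4.04% of the counts of Ncaph, 15.8% of those of Nuf2 and 29.6% of those of Cdca8. In Ncapd2 retained intron transcripts together held 65.2% and 74.2% of TPM, but single ones moved in both directions. Ncapd2-211, of 688 bases, had 0 and 131 counts and 0% and 12.1% of TPM. Ncapd2-203 had 24.4% and 13.7% of TPM, and Ncapd2-206 had 20.0% and 7.01%. TPM divides by effective length, the number of positions where a fragment can start, and this was 98.3 and 135 bases for Ncaph-204 in replicates 1 and 2. For transcripts of these genes longer than 2 kb the median effective length was 190.0 bases below the full length in replicate 1 and 152 below it in replicate 2. The size ranges in the labels, which have no unit, also differ, with 200 to 764 for replicate 1 but 138 to 1000 for replicate 2. The part of fragment size in these gaps was not tested.

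The transcript tables listed 207 transcripts for the 41 genes: 98 protein-coding, 60 retained intron, 30 processed transcripts, 13 marked for nonsense-mediated decay and 6 not found in the annotation used for names. The leading transcript of a gene is the one with the highest mean share of its TPM. Over the 39 detected genes the median leading share was 74.3%. Among the 28 of them with several transcripts, the top transcript was the same in both libraries in 20 and different in 8, and the leading one held over 50% in both libraries in 15. The highest share, 100%, was held in the genes with 1 listed transcript and in Bub1b, whose Bub1b-201 took all of it from 4 transcripts. The lowest was that of Ncapd2-201, at 32.1% and 20.7% in replicates 1 and 2. Birc5-201 led with 93.1% and 89.1%. In Smc2 the order turned over, with Smc2-201 at 37.7% and 68.0% and another protein-coding transcript, of 5328 bases, at 59.9% and 30.2%. Plk4 had 35.6% and 13.7% of its TPM in transcripts missing from the annotation.

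Part of the RNA was assigned to transcripts annotated as other than protein-coding. The median share of TPM outside protein-coding transcripts was 2.15% over the 39 detected genes, and for the 28 with several transcripts it was 12.2% in replicate 1 and 17.7% in replicate 2. By counts the same shares were 5.29% and 4.44%, and the share was higher by TPM than by counts in 22 of the 28. The highest shares by TPM, as the mean of both libraries, were those of Ncapd2 (67.9% and 74.2%), Aurkb (65.0% and 70.1%) and Nek2 (63.8% and 66.8%). In replicate 2 alone Ncaph (71.4%) stood above Aurkb and Nek2, and Smc4 (69.9%) above Nek2, and in replicate 1 alone Ect2 (64.0%) stood above Nek2. By counts they were 20.6% and 29.3% for Ncapd2, 26.3% and 38.3% for Aurkb, and 29.5% and 20.3% for Nek2. So most reads of these genes were assigned to coding transcripts while most of their TPM was not.

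**Figure D4:**
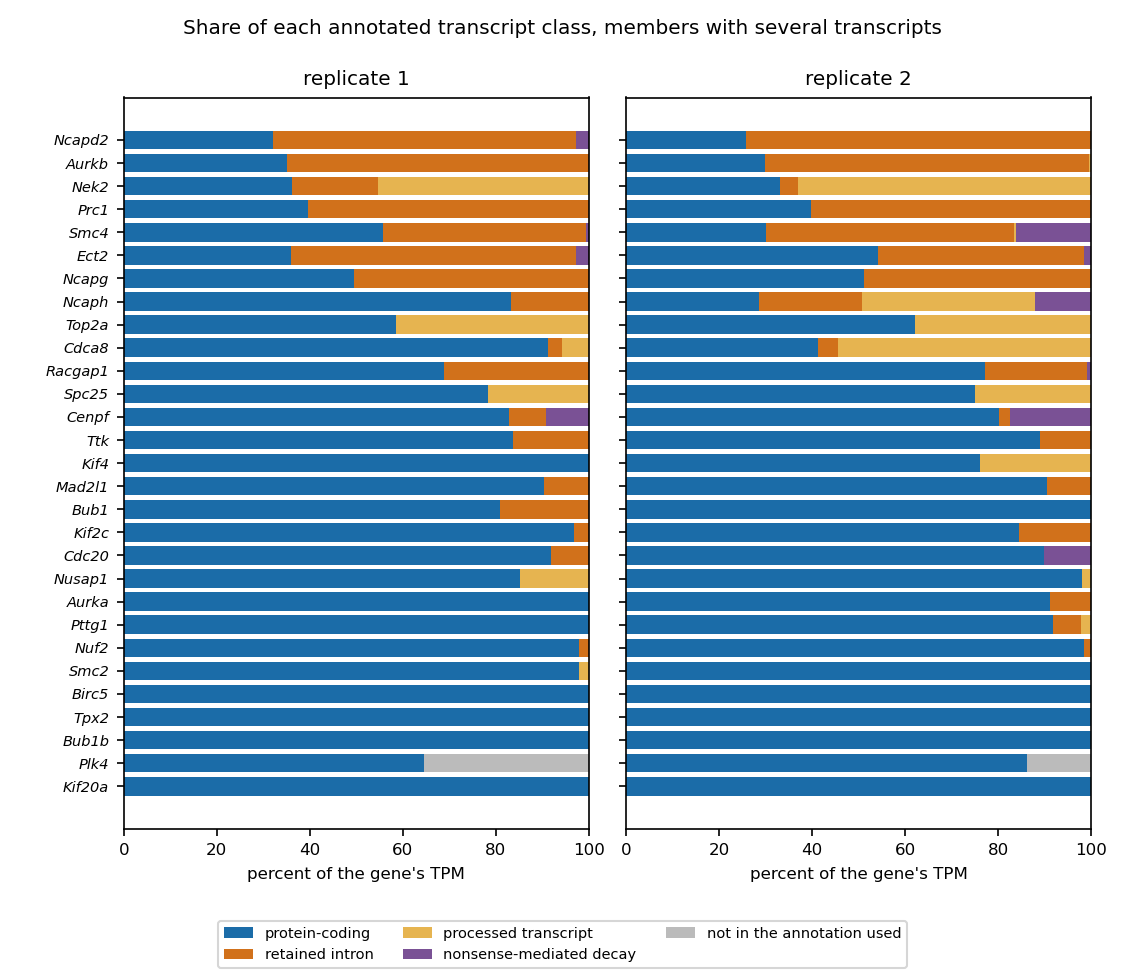
Percent of a gene's TPM in each annotated transcript class for the 29 mitosis genes with several listed transcripts, in replicate 1 (left) and replicate 2 (right), ordered by the mean share outside protein-coding transcripts. Retained intron transcripts fill most of the bar of Ncapd2, Aurkb and Prc1, and the bars of Ncaph and Cdca8 change most between the libraries.

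In 4 genes the leading transcript itself was not protein-coding. For Aurkb it was the retained intron transcript Aurkb-208 of 462 bases, with 50.7% and 42.2% of TPM from 16.9% and 15.2% of counts. For Prc1 it was the retained intron transcript Prc1-212 of 497 bases, with 48.0% and 50.6% of TPM from 9.89% and 13.8% of counts. For Nek2 it was the processed transcript Nek2-203 of 452 bases, with 45.4% and 63.1% of TPM from 7.63% and 14.8% of counts. Each of these is short beside the main coding transcript of its gene, such as Nek2-201 with 3227 bases. Ect2, named after its values were seen, was led by the retained intron transcript Ect2-201 of 2228 bases, with 61.1% and 18.5% of TPM, and in replicate 2 the coding Ect2-207 was higher at 44.2%. Total RNA holds unspliced and partly spliced RNA as well as mature mRNA, and short transcripts that lie inside a longer one share its reads, so these shares rest on how the reads were assigned.

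Counting protein-coding transcripts only, a choice made after the data were seen, lowered the median coding-scaled TPM of the 41 genes to 38.4 and 41.2. Mki67 and Top2a stayed first and second, with 1369 and 1411 for Mki67 and 206 and 258 for Top2a. Prc1 went from 180 and 349 to 71.2 and 139, and Ncapd2 from 146 and 261 to 46.9 and 67.3. Aurkb went to 37.9 and 23.2, below Cdca8 at 51.0 and 32.5, and Nek2 went to 11.2 and 22.6. In condensin I, Smc4 (186 and 113) and Smc2 (86.0 and 79.0) were then the highest subunits, followed by Ncapd2, with Ncaph at 32.9 and 19.1 and Ncapg at 28.7 and 32.3. The order of the NDC80 subunits did not change, with Nuf2 at 81.7 and 125 and Spc25 at 29.6 and 52.6. The value of Nuf2 in replicate 2 still includes the short Nuf2-205, which is annotated as protein-coding. Spc24 and Ndc80 have 1 transcript each and kept their values, as did Kif23, while Racgap1 went to 33.9 and 32.2.

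**Figure D5:**
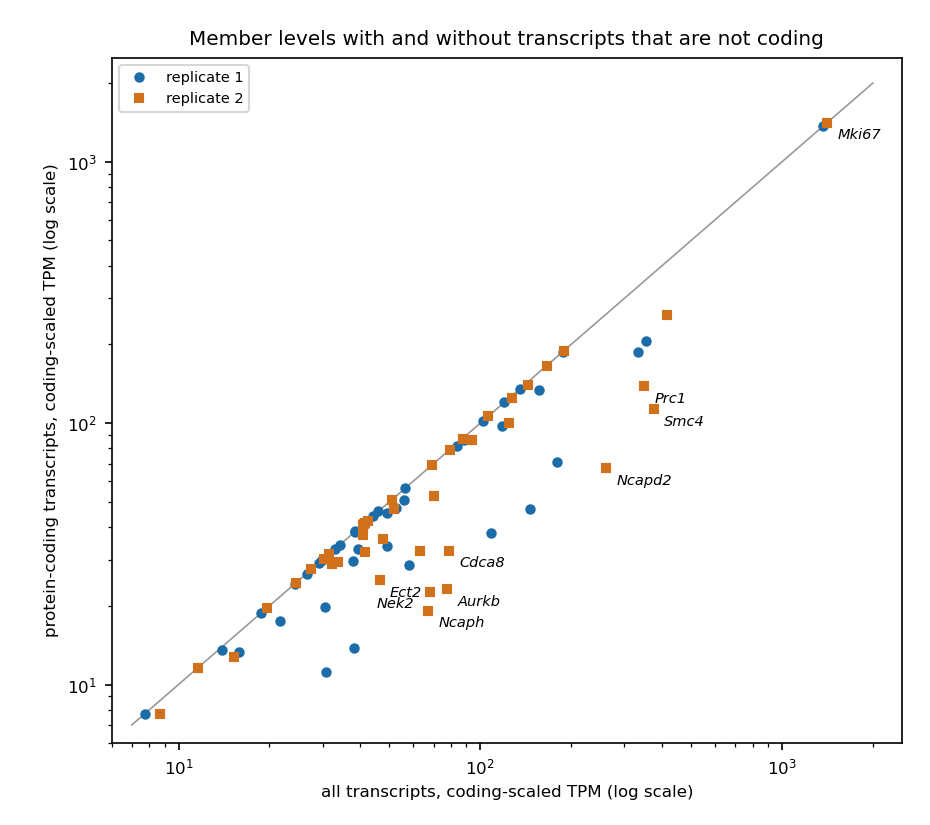
Level of each mitosis gene over all its transcripts (horizontal) against its level over protein-coding transcripts alone (vertical), in coding-scaled TPM on log scales, for replicates 1 and 2, with the line of equal values. Many points lie on or near the line, and Ncapd2, Prc1, Aurkb, Nek2, Ect2, Ncapg, Smc4 and Top2a are among those below it in both libraries.

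Reads of a mitosis gene could also belong to a neighbour. None of the 41 had a posterior SD above 3 times the square root of its count, the limit used for genes that share reads with similar copies, and the highest was 0.18 times. Exons of a gene on the opposite strand overlapped 9 of the 41: Ncapg, Cdca8, Plk1, Nek2, Cdc20, Kif4, Nusap1, Kif20a and Prc1. Whether the counting used strand is not given in the sources used here, so reads of these pairs may not be told apart. The overlap was longest for Kif20a, at 1271 bases with Cdc23, which had 628 and 349 counts against 1244 and 650 for Kif20a. On the same strand, the small RNA gene Scarna10 (GRCm38 chr6:125186359-125186683) lies within Ncapd2 and shares 237 bases with the retained intron transcript Ncapd2-203. Scarna10 had 32271 and 17534 counts, 8.09 and 6.46 times those of the whole Ncapd2 gene, and Ncapd2-203 held 24.4% and 13.7% of the TPM of Ncapd2 from 266 and 147 counts. How reads were split between Ncapd2 and Scarna10, and what part this has in the level of Ncapd2, was not tested.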

How the data were processed

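Total RNA-seq of 2 mouse erythroblast libraries was analysed. The authors deposited 1 gene table and 1 transcript table for each, on assembly mm10 per the labels and with GENCODE annotation M4 per the deposited text records. Which aligner and quantification program were used, and whether strand was, is not given in the sources used here. The deposited values used were expected counts, TPM, posterior means with their standard deviation, and the percent of the TPM of a gene in each transcript, per the file headers. Rows that name no Ensembl gene (8 counts in replicate 1, 28 in replicate 2) stayed out of library sizes.

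Of 43346 Ensembl genes, 42462 matched GENCODE M21 (GRCm38), which gave symbols, coordinates and transcript classes, and 21461 of them are nuclear protein-coding. Rounded expected counts were scaled by TMM (edgeR 4.0.16, R 4.3.3) or, as an alternative, by size factors of DESeq2 1.42.0. Other steps used scipy 1.17.1, pandas 2.3.3, numpy 2.4.6 and matplotlib 3.10.9 in Python 3.11.15. The ratio step was tested on simulated data with 200 changed genes, drawn with counting error alone. That checks the calculation, not whether the intervals cover the spread between real libraries. Depth limits precision most for Ttk in replicate 2, with 181 counts.

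The genes, the lists and the promoter elements were chosen with earlier results of these data known. Genes given in every library are the 10 highest and 5 lowest by mean level, the subunits of the NDC80 complex, the passenger complex, condensin I and centralspindlin, genes at least 2-fold apart, those sharing reads, and those at the ends of the transcript shares. Of the other mitosis genes they are the 5 highest and those not detected. Values of the remaining genes complete each role. Alternatives were another estimate, scaling, detection limit or set of transcripts, and leaving out each library.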

Additional observations from a re-analysis of the deposited data

How the results depend on the processing

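The number of mitosis genes detected was 39 to 41 under all alternatives tried, and 39 to 40 with each library left out in turn. Of the other mitosis genes, 49 to 65 were detected, and 49 to 59 with a library left out. The median level of 54.5 coding-scaled TPM was 45.9 to 63.1 with a library left out. It was 84.5 when the adult globin genes were left out of the rescaling, 4.76 in deposited TPM and 39.8 over protein-coding transcripts. None of the 41 genes was 2-fold apart by TMM, by DESeq2 size factors, without a count filter or by posterior mean counts. With library size alone 1 gene was (Ttk), by coding-scaled TPM 1 (Nek2) and by coding-scaled TPM of coding transcripts 1 (Nek2). The median log2 ratio of 0.03 was -0.11 with library size alone, and the sign of the ratio changed in 3 genes. The median leading transcript share of 74.3% was 62.1% over genes with several transcripts, and 68.0% to 80.6% with a library left out. The median share outside coding transcripts was 2.15%. It was 6.04% by posterior means, 0.944% by counts and 14.9% over genes with several transcripts, and 2.09% to 2.20% with a library left out. The alternatives for coding transcripts and for genes with several transcripts were chosen after seeing the data. The cause of these changes was not tested. Depth limits the ratio of Ttk most, with 181 counts in replicate 2.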
